A study of Mus musculus with 41 samples.

Results

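Transcripts of 7 GABA-A receptor subunit genes (Gabra2, Gabra4, Gabra5, Gabrb1, Gabrb2, Gabrg1 and Gabrd) were followed in RNA bound to tagged ribosomes of the mouse dorsal striatum. They were taken by symbol from the 32531 named genes of each count table, and all 7 were present. The mice were of the Drd1-TRAP line CP73, a cross of FVB/N-Swiss Webster with at least 9 generations of C57BL/6. In this line a Drd1-driven transgene puts EGFP on the ribosomal protein L10a, so that polysomes pulled down with anti-EGFP antibodies come mainly from neurons with the dopamine D1 receptor. All mice, controls included, carried the transgene and had worked for intravenous infusions of saline or cocaine in a long-access design. The cocaine mice are labelled nonescalating or escalating. At 24 h after self-administration there were 5 saline, 9 nonescalating and 5 escalating libraries, and at 1 month 5, 11 and 4. A further 2 saline inputs hold total RNA with no time label. The labels do not say whether a library is 1 animal, so p-values measure the spread between libraries, which may be technical. In the nonescalating groups the replicate numbers start again, after 6 of the 9 libraries at 24 h and after 6 of the 11 at 1 month. In the inputs, the second of these runs at 1 month and the escalating group at 1 month, the labels leave out the word extended that the others use.

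GABA-A receptors are chloride channels built of several subunits, commonly alpha and beta subunits joined by a gamma or a delta subunit. Receptors with a gamma subunit are common at synapses, whereas receptors with delta, often paired with alpha4, lie outside synapses and carry a tonic current. In the striatum, medium spiny neurons both release GABA and receive it from interneurons and from one another. Receptors with alpha2 or alpha5 bind classical benzodiazepines such as diazepam, and receptors with alpha4 do not, because of 1 residue in the extracellular part of the alpha subunit.

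The codon of that residue sets Gabra4 apart from Gabra2 and Gabra5. The 63 coding bases around it are shown, 5′ to 3′, with the codon in capitals. They were read from GENCODE M21 transcripts, and CAC codes for histidine and AGG for arginine.
Gabra2: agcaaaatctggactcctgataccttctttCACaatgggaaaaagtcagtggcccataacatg
Gabra4: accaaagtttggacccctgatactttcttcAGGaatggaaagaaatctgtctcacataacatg
Gabra5: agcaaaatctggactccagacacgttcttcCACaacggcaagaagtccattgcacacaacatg

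On the mouse assembly GRCm38 (mm10), 4 of the 7 genes lie together on chromosome 5. Gabrg1 is at chr5:70751047-70842617, Gabra2 at chr5:70957597-71095849 and Gabra4 at chr5:71569749-71658308, all on the minus strand, and Gabrb1 is at chr5:71658113-72149037 on the plus strand. The starts of Gabra4 and Gabrb1 overlap by 196 bases, of which 46 are exonic in both, and the strand setting of the counting is not given in the sources used here. Reads from those bases therefore cannot be assigned with certainty. Gabra5 (chr7:57407672-57510059, minus strand) overlaps the antisense gene Gm9962, which had 428 counts over all libraries. Gabrb2 is at chr11:42419757-42629028 on the plus strand and Gabrd at chr4:155384980-155398112 on the minus strand.

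Depth ran from 5394332 to 23925655 counts per library. Summed D1 neuron markers were 1769 to 2743 CPM (a gene's counts per 1000000 counts of its library) in the 39 purified libraries, against 986 and 1188 in the inputs, and all 8 markers were present. Summed D2 neuron markers were 110 to 374 CPM in purified RNA against 1409 and 1516. Summed astrocyte markers (10 genes) were 184 to 1245 CPM against 2566 and 2814. Endothelial and mural markers (8 genes) went the other way in most purified libraries, with a median of 131 CPM and a range of 7.87 to 1487 CPM in the 38 libraries other than saline replicate 5 at 24 h, against 35.8 and 39.8 CPM in the inputs. Cortical glutamatergic neuron markers (7 genes) were 271 to 912 CPM against 350.4 and 455 CPM. Saline replicate 5 at 24 h stood apart, with 5394332 counts and 11856 detected genes (at least 13360 in the other purified libraries). The counting program put 37.1% of its reads in the no-feature line (at most 26.8% in the other purified libraries). Its summed astrocyte markers (1245 CPM) and endothelial and mural markers (2110 CPM) were the highest of the purified libraries. The part of these in its subunit levels was not tested, and results at 24 h are given with and without it.

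Beta subunits form part of every common receptor, and Gabrb2 had the highest level of the 7 genes. It had 325, 264, 311, 152 and 387 CPM in saline replicates 1, 2, 3, 5 and 6 at 24 h. At 1 month the saline libraries had 238.0, 253, 290.5, 209.6 and 298 CPM, and the inputs 378 and 273 CPM. Saline replicate 5 at 24 h was the lowest of all 39 purified libraries, and the inputs lay within the purified range. Nonescalating libraries had 196 to 323 CPM (median 272) at 24 h and 184 to 368 CPM (median 259.9) at 1 month. Escalating libraries had 381, 348, 265, 245 and 295 CPM at 24 h and 246, 250.3, 299 and 242 CPM at 1 month. All groups overlapped, and their means lay between 258 and 307 CPM. The other beta gene of the set, Gabrb1, was lower and more variable, at 6.58 to 69.4 CPM in purified RNA. Both of these extremes were saline libraries at 24 h, which had 6.58, 20.2, 69.4, 26.7 and 49.0 CPM. The inputs had 41.9 and 45.4 CPM of Gabrb1, and 35 of 39 purified libraries lay below both.

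Gabra4, whose product is the usual partner of delta, had 163, 139, 129.7, 143 and 197 CPM in the saline libraries at 24 h and 160.4, 129, 142, 147 and 164 CPM at 1 month. Nonescalating libraries ranged from 110.5 to 174 CPM (median 138) at 24 h and from 103 to 229.6 CPM (median 126) at 1 month. Escalating libraries had 231, 186, 159.9, 103 and 146 CPM at 24 h and 151, 137, 169 and 114 CPM at 1 month. The groups overlapped throughout, and replicate 5 did not stand out for this gene. The inputs differed from each other, at 247 and 145 CPM.

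Gabra5, whose product is known for tonic inhibition in hippocampus, had 43.6, 56.6, 28.3, 6.67 and 71.7 CPM in saline libraries at 24 h, in which replicate 5 was the lowest of all purified libraries. It had 45.9, 46.5, 46.6, 29.0 and 54.7 CPM in saline libraries at 1 month and 32.3 and 25.8 CPM in the inputs. Of the 39 purified libraries, 34 were above both inputs and 1 was below both. Gabra2, whose product is found at synapses, had 50.4, 36.7, 29.3, 3.34 and 57.6 CPM in saline libraries at 24 h. It had 31.6, 13.7, 30.8, 32.2 and 32.4 CPM at 1 month and 43.3 and 35.0 CPM in the inputs. Saline at 24 h held both the lowest and the highest purified library for Gabra2 and for Gabra5. In the 4 cocaine groups Gabra2 was between 17.4 and 46.4 CPM and Gabra5 between 27.1 and 60.2 CPM.

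Gabrd, which encodes the delta subunit, had 99.8, 56.5, 34.4, 133 and 38.6 CPM in saline libraries at 24 h, and here replicate 5 was the highest of all 39. Saline libraries at 1 month had 73.9, 55.9, 59.5, 82.2 and 78.9 CPM. The inputs, at 54.6 and 62.2 CPM, were below 27 of the 39 purified libraries. Escalating libraries at 24 h had 66.2, 79.9, 129, 105 and 70.2 CPM, which gave the highest group mean, 90.2 ± 26.6 CPM (SD, n = 5). The other purified groups had means of 69.7 to 72.5 CPM. Gabrg1, a gamma gene found in few brain regions, was the lowest of the 7. It had 1.42, 3.04, 14.4, 8.71 and 7.91 CPM in saline libraries at 24 h, and 6.91, 7.10, 4.24, 1.73 and 5.80 CPM at 1 month. The inputs had 15.8 and 15.1 CPM, and all 39 purified libraries lay below both. Purified libraries held 6 to 191 counts of Gabrg1, so its level carries the largest counting error of the 7. Over the purified libraries its SD was 49.7% of the mean, against 19.1% for Gabrb2, 19.8% for Gabra4 and 26.6% to 35.3% for the other genes.

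**Figure D1:**
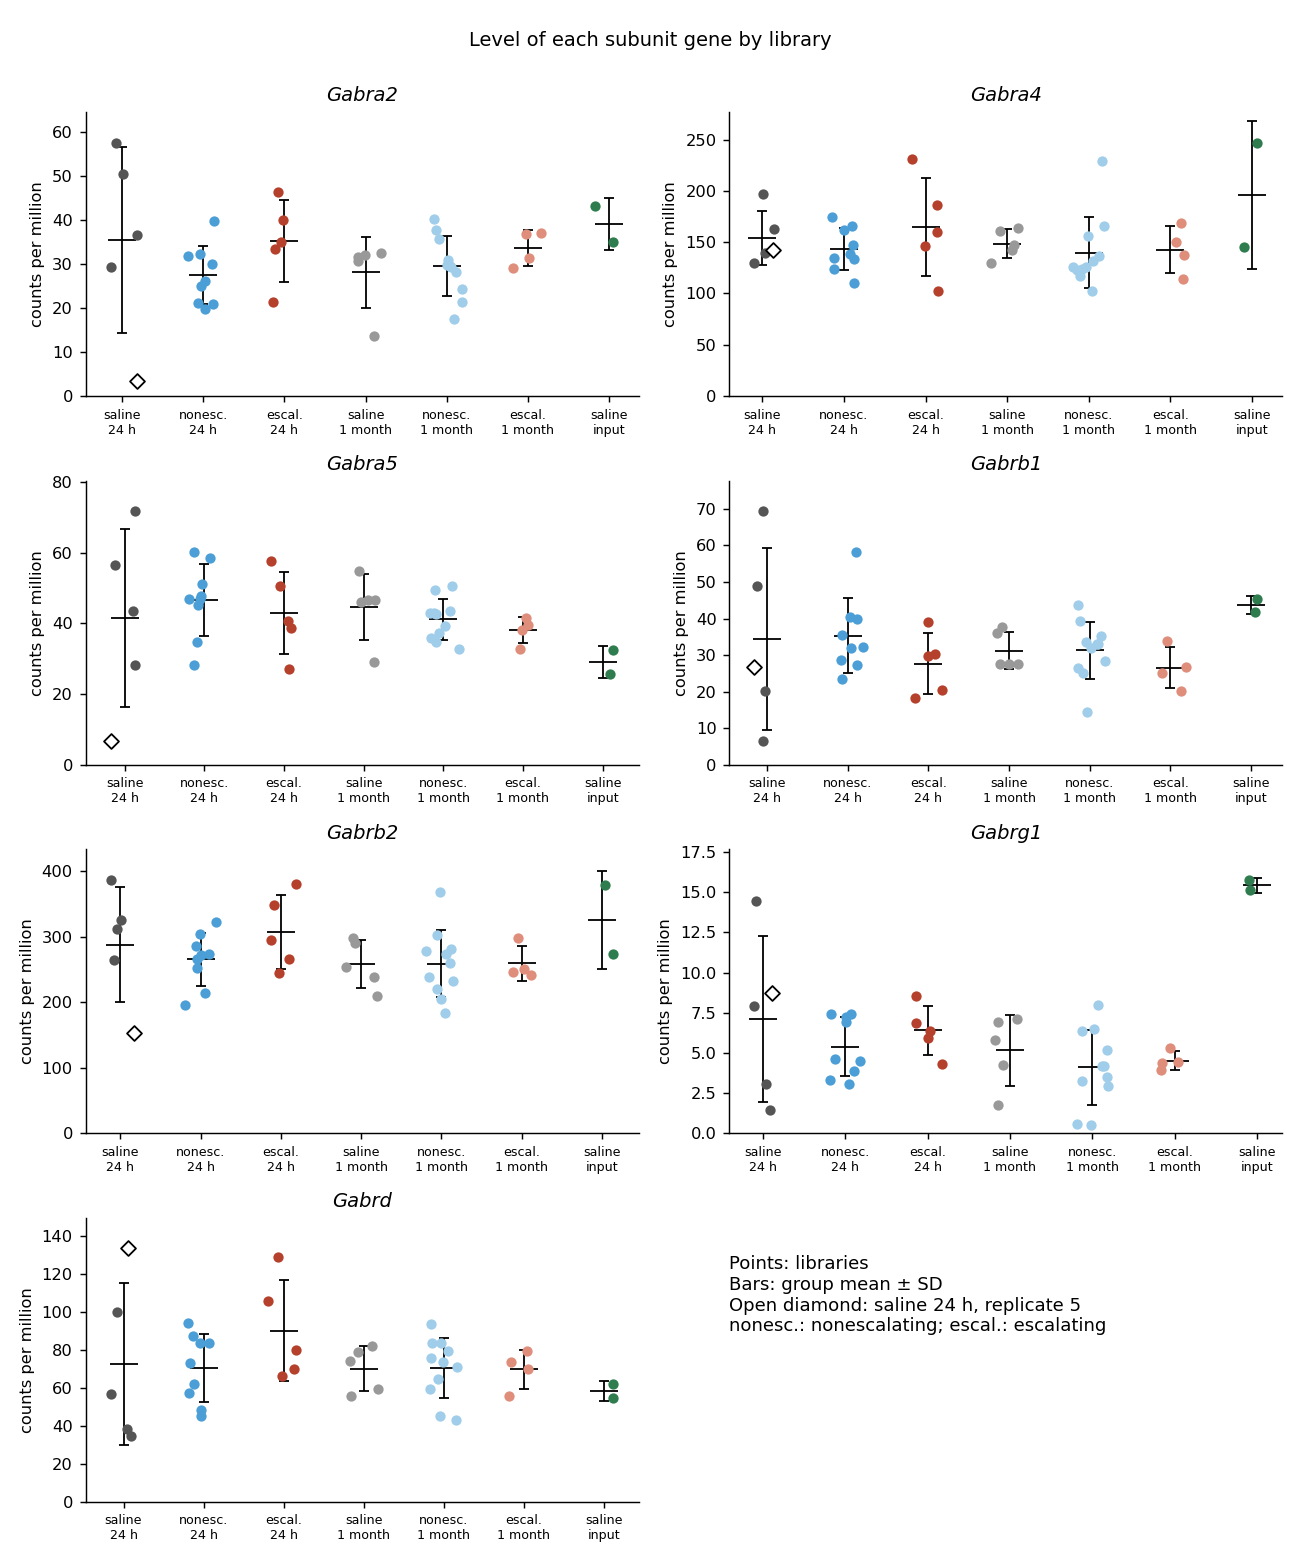
Level of each of the 7 genes in CPM, by library, in the 6 purified groups and the inputs (points; bars are group mean ± SD; the open diamond is saline replicate 5 at 24 h). Groups overlap for every gene in purified RNA, saline at 24 h has the largest SD of the purified groups for 6 genes, the exception being Gabra4, and both inputs lie above every purified library for Gabrg1.

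For a comparison between genes, CPM were divided by the length of merged exons in kilobases (CPM per kb). Mean levels over the 39 purified libraries were 42.5 ± 8.11 CPM per kb for Gabrb2, 25.4 ± 7.53 for Gabrd, 24.2 ± 4.79 for Gabra4, 14.4 ± 3.82 for Gabra5, 4.03 ± 1.28 for Gabra2, 2.29 ± 0.81 for Gabrb1 and 0.667 ± 0.331 for Gabrg1 (SD, n = 39). Gabrb2 was above Gabrd in 37 of the 39 libraries. Gabrd was above Gabra4 in only 22 and in neither input, so the order of these 2 genes was not distinct. Gabra4 was above Gabra5 in 38 libraries, Gabra5 above Gabra2 in 39, Gabra2 above Gabrb1 in 32 and Gabrb1 above Gabrg1 in 39. With the longest coding sequence as the length, Gabrd was above Gabra4 in 4 of 39 libraries, and Gabra2 above Gabrb1 in 20.

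The share of each gene within its class describes the composition of the messenger RNA. Among alpha genes of purified RNA, Gabra4 held 38.5 ± 4.38%, Gabra5 22.8 ± 5.16% and Gabra2 6.38 ± 1.64% of the summed CPM per kb (SD, n = 39). Gabra3, outside the 7, held 4.75 ± 4.77%. Among beta genes, Gabrb2 held 24.8 ± 3.04% and Gabrb1 1.37 ± 0.51%. Among gamma and delta genes, Gabrd held 61.7 ± 10.3% and Gabrg1 1.70 ± 0.97%, beside 16.4 ± 6.73% for Gabrg3. The share of Gabrd rests on the exon length used, and with coding length it was 37.4%. That of Gabra5 was then 12.9%, that of Gabra2 9.44% and that of Gabrb1 3.01%.

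With all libraries kept, the mean shares of Gabra4 and Gabrb2 were close in the 6 purified groups, and those of Gabra5 and Gabrd differed more. Mean shares of Gabra4 among alpha genes ran from 37.2% (nonescalating, 24 h) to 40.0% (escalating, 24 h), and those of Gabrb2 among beta genes from 23.4% (saline, 24 h) to 25.7% (nonescalating, 24 h). Mean shares of Gabra5 ran from 18.99% (saline, 24 h) to 24.7% (nonescalating, 24 h), and those of Gabrd from 54.9% (saline, 24 h) to 64.3% (saline, 1 month). Saline at 24 h was also the most variable group. Its shares of Gabrd were 61.7%, 47.3%, 36.9%, 87.1% and 41.8% in replicates 1, 2, 3, 5 and 6. Without replicate 5 its mean share was 46.9 ± 10.7% for Gabrd (SD, n = 4), 22.6 ± 5.21% for Gabra5 and 35.5 ± 2.82% for Gabra4. The mean share of Gabra5 then lay within those of the other groups, and that of Gabra4 lay below them. The larger difference for Gabra5 than for Gabra4 therefore rested on that library. No share was tested between groups.

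The shares in the inputs were set against each purified library. Gabrb2 held 34.2% and 34.5% of the beta class in the inputs, above all 39 purified libraries. Its level in CPM was below both inputs in only 21 of the 39 and above both in 2. A share also depends on the other genes of the class. Gabra5 held 12.2% and 13.6% of the alpha class, below 38 of 39, the exception being saline replicate 5 at 24 h, at 4.55%. Gabrg1 held 5.05% and 5.08% of the gamma and delta class, above 38 of 39, the exception being saline replicate 3 at 24 h, at 5.65%. The share of Gabrb1 was below both inputs in 32 purified libraries and above both in 1, and that of Gabrd was above both in 31 and below both in 5. The shares of Gabra2 (16 below both, 11 above both) and Gabra4 (16 and 2) were on both sides of the inputs. These are counts of libraries against 2 inputs, with no test.

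**Figure D2:**
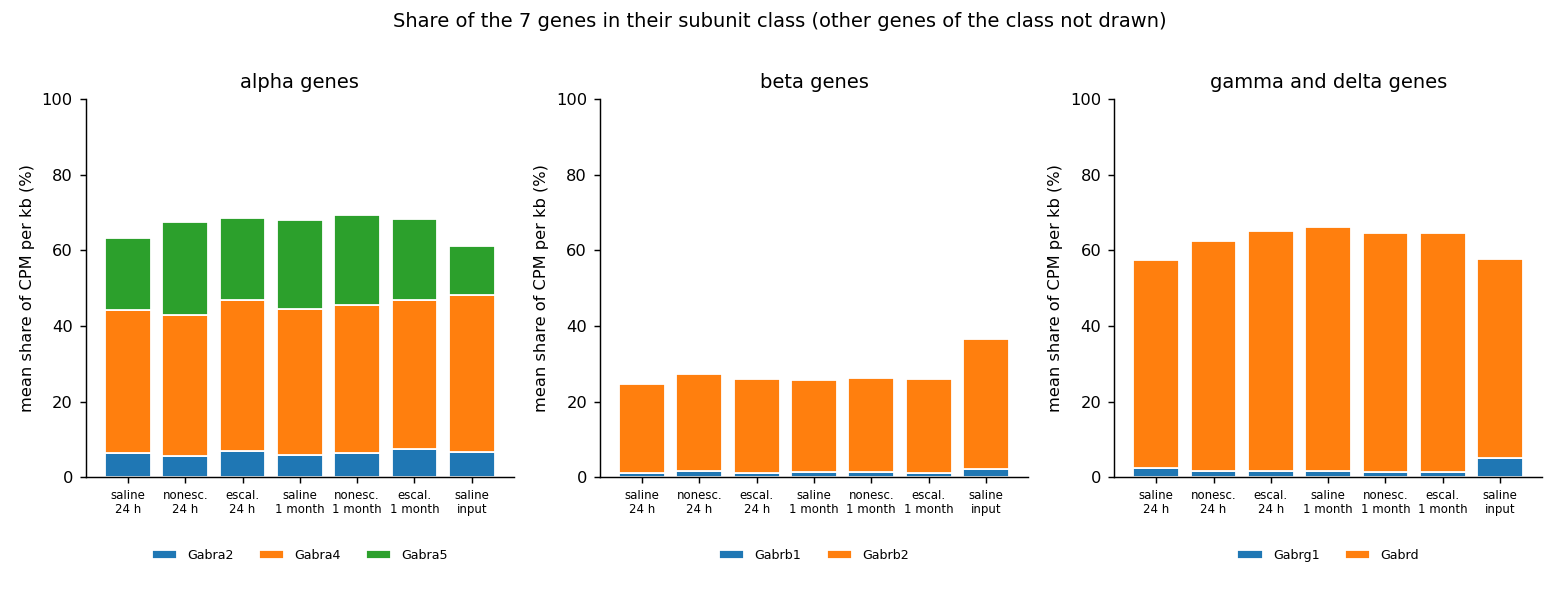
Mean share in percent of summed CPM per kb of exon, within alpha genes, beta genes, and gamma and delta genes, for the 6 purified groups and the inputs (stacked bars of the 7 genes; the shares of other genes of a class, up to 100%, are not drawn). Gabrb2 holds 34.3% of the beta class in the inputs against 23.4% to 25.7% in the purified group means, a share that also depends on the genes not drawn.

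To see whether purification changed the subunit transcripts, the 10 saline purified libraries were compared with the 2 inputs by edgeR's quasi-likelihood test with Benjamini-Hochberg adjustment over 15305 genes. None of the 7 genes passed an adjusted p of 0.05, in a comparison that called 4.65% of all genes. In edgeR 0 of 7 had an unadjusted p under 0.05, against 2796 of all genes. DESeq2 called 0 of 7 as well. Over all genes, the alternative fits, DESeq2 included, called 12 to 2951. On simulated counts this edgeR comparison recovered 6% of 2-fold and 41% of 4-fold changes. The lack of a call therefore does not show that a level was unchanged. The median log2 fold change of the 7 was -0.14, against -0.01 over all genes tested. Values after ± beside a log2 fold change are standard errors. Gabrg1 was at -1.17 ± 0.69 (95% interval -2.65 to 0.31, adjusted p = 0.426). Gabra5 was at 0.73 ± 0.56 (-0.46 to 1.92, adjusted p = 0.572). The other 5 genes lay between -0.23 and 0.47.

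Against the inputs, the saline libraries of 1 month alone gave 1 call among the 7. That fit called 2951 genes over all, against 712 with the saline libraries of both times. With so many genes called, 1 of 7 is not read as a result about these genes. In the fit of 1 month alone, Gabra5 had a log2 fold change of 0.78 ± 0.24 (edgeR adjusted p = 0.0444). Gabrg1 had one of -1.42 ± 0.47 (adjusted p = 0.0542). With the 24 h saline libraries alone the values were 0.70 ± 0.74 (adjusted p = 0.837) and -0.89 ± 0.92 (adjusted p = 0.832). Without saline replicate 5 at 24 h, Gabra5 was at 0.86 ± 0.31 (adjusted p = 0.0720, unadjusted p = 0.0132). Summed astrocyte markers were higher in the inputs, as given above, and so were oligodendrocyte markers (10 genes, 92.5 to 522 CPM in purified RNA against 2037.5 and 2207). Their part in the Gabrg1 difference was not tested. In purified and input RNA from many cells, the mix of cell types and the level within a cell type cannot be told apart.

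The comparisons of cocaine with saline asked whether these transcripts differed between mice that took cocaine and mice that took saline. At 24 h none of the 7 genes passed in any of 4 comparisons over 13437 genes. All cocaine against saline called 0.0447% of all genes, while escalating against saline, nonescalating against saline and escalating against nonescalating each called 0%. In all 4 comparisons 0 of 7 had an unadjusted p under 0.05 in edgeR and 0 were called by DESeq2, whereas 537 to 1842 of all genes had such a p in edgeR. Over all genes DESeq2 called 171, 47, 117 and 0 in the same order. For all cocaine the median of the 7 was -0.09, against -0.02 over all genes. The lowest p belonged to Gabrg1 (-0.38 ± 0.43, adjusted p = 0.756) and Gabra2 (-0.24 ± 0.34, adjusted p = 0.811). Neither direction held when single saline libraries were left out, with Gabrg1 at 0.0613 without replicate 3 and Gabra2 at 0.0008 without replicate 6. The intervals of the 7 spanned -1.27 to 0.68. On simulated counts, all cocaine against saline at 24 h recovered 41% of 2-fold changes.

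In escalating against saline at 24 h, Gabrb1 had a log2 fold change of -0.41 ± 0.42 (edgeR adjusted p = 0.774) and Gabrd one of 0.23 ± 0.32 (adjusted p = 0.849). Without saline replicate 3 the log2 fold change of Gabrb1 was 0.0221, of the other sign. In nonescalating against saline the lowest p were those of Gabrb2 (-0.20 ± 0.16, adjusted p = 0.653) and Gabra2 (-0.44 ± 0.36, adjusted p = 0.664). In escalating against nonescalating they were those of Gabrb2 (0.23 ± 0.16) and Gabra4 (0.22 ± 0.16), both with an adjusted p of 0.999. With the first nonescalating run alone, the 7 genes lay between -0.48 and 0.15 against saline, and with the second run alone between -0.71 and 0.11, with 0 of 7 called in either.

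Without saline replicate 5 at 24 h, several of these values were larger and still did not pass. Gabra2 was then at -0.72 ± 0.23 in nonescalating against saline (edgeR adjusted p = 0.248, unadjusted p = 0.00401) and at -0.53 ± 0.22 in all cocaine against saline (adjusted p = 0.361, unadjusted p = 0.0217). Gabrb2 was at -0.35 ± 0.14 in nonescalating against saline (adjusted p = 0.336). Gabrd was at 0.62 ± 0.28 in escalating against saline (adjusted p = 0.498). Without replicate 5 the 4 saline libraries had 29.3 to 57.6 CPM of Gabra2, and the 9 nonescalating libraries had 19.8 to 39.8 CPM, so the groups still overlapped. In nonescalating against saline, Gabra5 went from 0.10 to -0.17 and Gabrd from -0.14 to 0.26 when replicate 5 was left out.

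At 1 month, again none of the 7 genes passed in 4 comparisons over 14488 genes, and 0 of 7 had an unadjusted p under 0.05 in edgeR or a call in DESeq2. All cocaine against saline, escalating against saline, nonescalating against saline and escalating against nonescalating called 0% of all genes each, with 177 to 522 genes at an unadjusted p under 0.05 in edgeR and 0 calls in DESeq2. For all cocaine the median of the 7 was -0.10, against -0.01 over all genes. Gabra5 was at -0.19 ± 0.15 and Gabra4 at -0.10 ± 0.14, with adjusted p of 1.00 for both. Gabra5 was at -0.26 ± 0.19 and Gabrb1 at -0.27 ± 0.24 in escalating against saline. Gabra5 (-0.12 ± 0.15) and Gabrg1 (-0.35 ± 0.45) had the lowest p in nonescalating against saline, and Gabrb1 (-0.26 ± 0.21) and Gabra5 (-0.14 ± 0.16) in escalating against nonescalating. All of these had edgeR adjusted p of 0.999 or more. The standard errors in all cocaine against saline were smaller than at 24 h for 6 of the 7 genes, the exception being Gabrg1, and for Gabrb2 in all cocaine against saline the interval was -0.27 to 0.23.

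Between the times, the saline groups differed in 0.843% of 15190 genes, and none of the 7 was among them. In edgeR 0 of 7 had an unadjusted p under 0.05, against 2486 of all genes. DESeq2 called 0 of 7. Over all genes, the alternative fits, DESeq2 included, called 7 to 628. Gabrb2 was at -0.22 ± 0.17 (edgeR adjusted p = 0.531) and Gabra2 at -0.39 ± 0.34 (adjusted p = 0.605) at 1 month against 24 h. Without saline replicate 5 these were -0.38 ± 0.15 (adjusted p = 0.229) and -0.68 ± 0.25 (adjusted p = 0.195). The same step in the nonescalating groups called 0% of genes and 0 of the 7, with Gabrg1 at -0.40 ± 0.38 and Gabra5 at -0.17 ± 0.21. In the escalating groups it called 0% and 0 of the 7, with Gabrb2 at -0.28 ± 0.18 and Gabrd at -0.41 ± 0.28. The cocaine effect at 1 month minus that at 24 h was called for 0.0132% of genes and for none of the 7. Gabra2 had the lowest p there, with a difference of 0.39 ± 0.40 (edgeR adjusted p = 0.780), and Gabra5 was at -0.23 ± 0.34 (adjusted p = 0.873). Without saline replicate 5 at 24 h, Gabra2 was at 0.68 ± 0.29 (edgeR adjusted p = 0.486, unadjusted p = 0.0244) and Gabra5 at 0.0412 ± 0.26 (adjusted p = 0.981). Of the 7 genes, 0 had an unadjusted p under 0.05 in these 3 comparisons and 0 were called by DESeq2. Over all genes 419 and 835 had such a p in the nonescalating and escalating steps, with 0 calls in DESeq2. In the difference of cocaine effects 1646 genes had such a p, and the alternative fits, DESeq2 included, called 0 to 60. These comparisons share libraries, so their values are not independent.

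**Figure D3:**
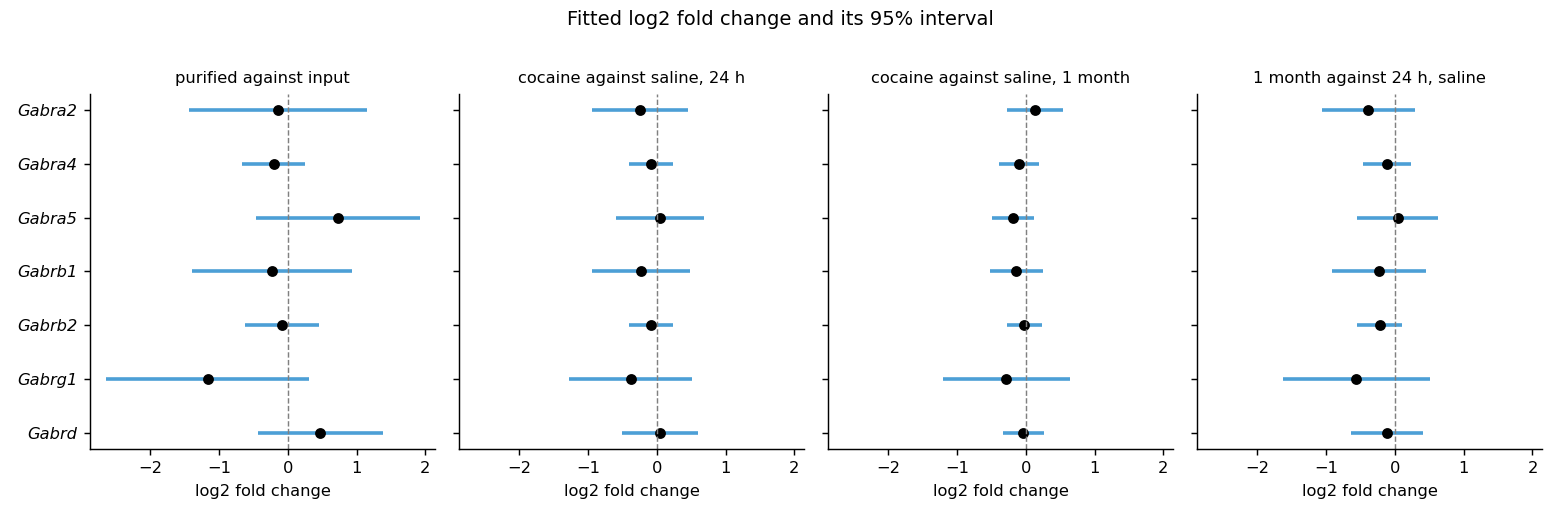
Fitted log2 fold change (dots) and its 95% interval (lines) for the 7 genes in 4 of the comparisons. Every interval includes 0, and the widest are those of Gabrg1.

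Across the 39 purified libraries some of the 7 genes varied together. All 21 pairs were computed on log2 CPM, with two-sided permutation tests of 100000 resamples and adjustment over the 21 pairs. The permutations exchanged libraries across groups and times, and the libraries differ in depth and in marker levels. How often other pairs of genes reach such values was not tested. Gabra4 and Gabrb2 had Pearson's r = 0.64 (p = 3e-05, adjusted 0.000315) and Spearman's rho = 0.58 (p = 8e-05, adjusted 0.00168). Their r was 0.52 without the 2 libraries farthest from the median of Gabra4, 0.56 within the 19 libraries of 24 h, 0.73 within the 20 of 1 month and 0.74 without saline replicate 5. Gabra2 and Gabrb2 had r = 0.67 (p = 1e-05, the smallest these permutations can give, adjusted 0.00021) and rho = 0.58 (p = 0.00018, adjusted 0.00189), with r = 0.63 without the 2 farthest libraries, 0.80 at 24 h and 0.42 at 1 month.

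Other pairs rested on few libraries or differed between the measures. Gabra2 and Gabra5 had r = 0.63 (p = 0.00785, adjusted 0.0365) but rho = 0.12 (p = 0.449, adjusted 0.673). Their r was 0.12 without the 2 farthest libraries, 0.75 at 24 h and -0.08 at 1 month. Without saline replicate 5 at 24 h alone it was 0.08, so this Pearson relation rests on that library. Gabra5 and Gabrb2 had r = 0.52 (p = 0.00081, adjusted 0.00567) and rho = 0.37 (p = 0.0203, adjusted 0.0853), with r = 0.22 without the 2 farthest libraries and 0.34 without saline replicate 5. Gabra5 and Gabrd had r = -0.42 (p = 0.00868, adjusted 0.0365) and rho = -0.25 (p = 0.127, adjusted 0.381), with r = -0.06 without the 2 farthest and -0.18 without saline replicate 5. Gabrb2 and Gabrd had r = -0.40 (p = 0.0125, adjusted 0.0436) and rho = -0.28 (p = 0.0881, adjusted 0.308), with r = -0.16 without the 2 farthest and -0.27 without saline replicate 5. Gabra2 and Gabra4 had r = 0.31 (p = 0.0580, adjusted 0.152) and rho = 0.52 (p = 0.00078, adjusted 0.00546). Their r was 0.58 without the 2 farthest libraries and 0.56 without saline replicate 5. Gabra2 and Gabrb1 had r = -0.23 (p = 0.132, adjusted 0.251) and rho = -0.42 (p = 0.00717, adjusted 0.0376), with r = -0.38 without the 2 farthest. The other 13 pairs had a Pearson p above 0.05.

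**Figure D4:**
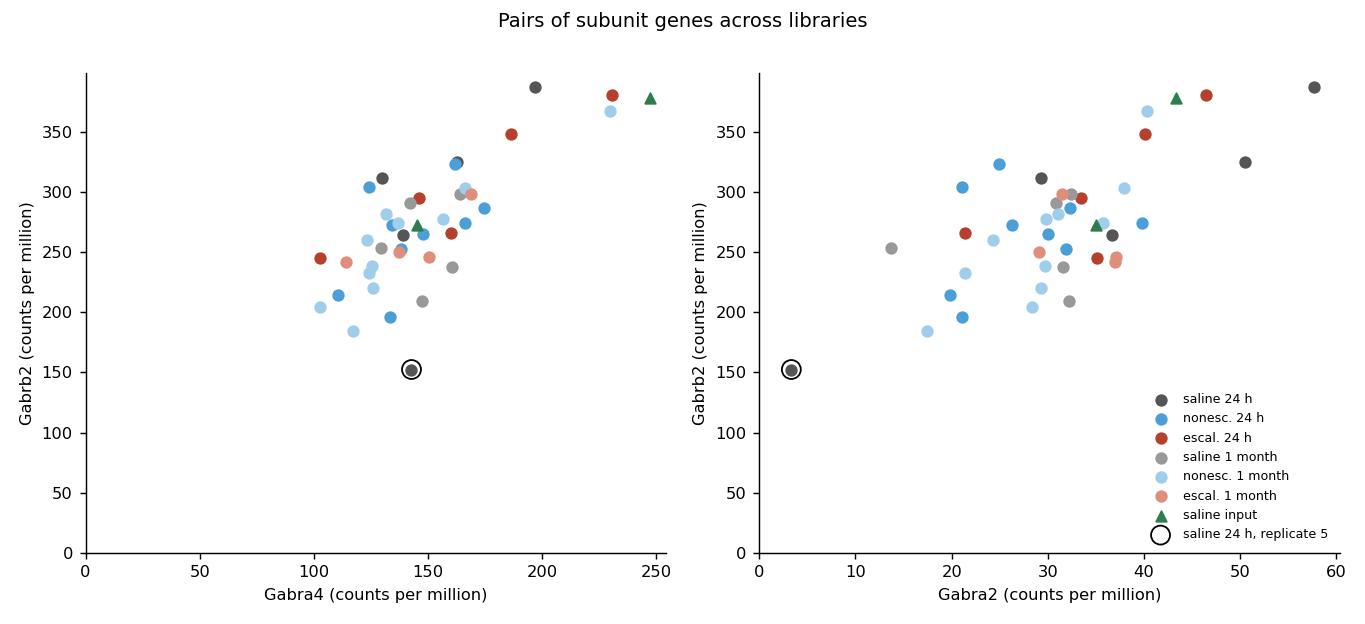
CPM of Gabrb2 against Gabra4 (left) and Gabra2 (right), 1 point for each library, coloured by group, with the inputs as triangles and saline replicate 5 at 24 h circled. Gabrb2 is higher where Gabra4 or Gabra2 is higher (r = 0.64 and 0.67 on log2 CPM over 39 purified libraries), the groups overlap, and the circled library is the lowest for Gabrb2 and for Gabra2.

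The genes most like each of the 7 over the 39 purified libraries were found by Spearman's rho among 9432 genes with a mean of at least 5 CPM. Gabra2 was nearest to St8sia3, Gpr155 and Srgap1 (rho 0.80, 0.78 and 0.78). Gabrb2 was nearest to Negr1, St8sia3 and St8sia1 (0.76, 0.74 and 0.73), so St8sia3, a sialyltransferase gene, stood near both. Gabra4 was nearest to Ttc3, Nckap1 and Selt (0.74, 0.74 and 0.73), and Gabra5 to Usp24, Slc4a10 and Cdh7 (0.70, 0.68 and 0.63). Gabrb1 was nearest to Zer1 and Sez6 (0.75 and 0.74), and Gabrd to Ndufa9, Paf1 and Rplp0 (0.70, 0.67 and 0.61). Gabrg1 had the weakest neighbours, Zdhhc21, Tmem183a and Pknox1 (0.53, 0.53 and 0.51). These values describe libraries that share depth and preparation, and they carry no test.

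Of the other genes of GABA signalling, 5 passed in purified against input RNA, a comparison that called 4.65% of all genes. Slc6a11, a GABA transporter typical of astrocytes, fell by 2.59 on the log2 scale (standard error 0.47, edgeR adjusted p = 0.00804), from 40.6 ± 17.7 CPM in the inputs to 3.83 ± 2.25 and 9.10 ± 2.20 CPM in saline libraries at 24 h and 1 month. Slc12a2, the chloride importer NKCC1, fell by 3.45 (standard error 0.42, adjusted p = 0.00043), from 96.4 ± 16.04 CPM to 5.59 ± 2.17 and 11.2 ± 6.48 CPM. The astrocyte and oligodendrocyte markers given above moved the same way as these 2 genes, and their part was not tested. Gabbr1, a GABA-B receptor subunit, rose by 0.90 ± 0.17 (adjusted p = 0.00845). Clptm1, which limits the exit of GABA-A receptors from the endoplasmic reticulum, rose by 0.88 ± 0.19 (adjusted p = 0.0162), and Iqsec3, a gephyrin-binding protein of inhibitory synapses, fell by 0.92 (standard error 0.23, adjusted p = 0.0370). Leaving out either input ended the call of each except Slc12a2, whose adjusted p was at most 0.0372, and that of Iqsec3 was lost in 7 of 12 such fits.

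By list, 1 of 9 genes of GABA synthesis, uptake and breakdown fell, 1 of 9 of chloride transport fell, 1 of 5 of GABA-B receptors rose, and of 21 tested genes of receptor anchoring and trafficking 1 rose and 1 fell. Of the 12 other GABA-A subunit genes 7 were tested and 0 passed. The list medians were 0.11, -0.32, 0.44, 0.38 and -0.49, against -0.01 over all genes. In the cocaine comparisons at both times 0 genes of these lists passed. Between the saline groups, Wnk1, a kinase that regulates chloride cotransporters, fell by 0.60 at 1 month (standard error 0.14, adjusted p = 0.0351), from 522 ± 127 to 361 ± 21.7 CPM (SD, n = 5 each). This call was lost in 6 of 19 fits that left out 1 library, including that without saline replicate 5 at 24 h, with adjusted p up to 0.0968.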

How the data were processed

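The authors deposited raw counts per gene, 1 table for each of 41 libraries. The submitters' processing notes name STAR 2.0.0e, HTSeq and the build mm10. Which annotation they used, and whether reads were counted by strand, is not given in the sources used here. The 5 summary lines of the counting program were left out.

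Normalization was by TMM, with edgeR 4.0.16 under R 4.3.3. Genes were filtered with filterByExpr and compared by quasi-likelihood F tests, adjusted over all genes tested, with adjusted p under 0.05 as a call. Each time was fitted with its 3 groups, differences between times with the 6 purified groups, and purified against input RNA with the 3 saline groups. All cocaine is the average of both cocaine groups. CPM are counts per 1000000 counts, and correlations used log2 CPM with a prior count of 2. Lengths and positions come from GENCODE M21. DESeq2 1.42.0 was the second tool. The alternatives were other size factors, no filter, a replicate block, single runs or times, 1 fit of all purified libraries, other lengths and leaving out libraries. Methods were tested on simulated data, with 100 genes changed 2-fold and 100 changed 4-fold. The share of 2-fold changes recovered was 6% for purified against input RNA and 41% for all cocaine against saline at 24 h. It was 72% for all cocaine against saline at 1 month and 44% for saline at 1 month against 24 h. For 4-fold changes these were 41%, 80%, 98% and 82% in the same order. Of 128 pairs of libraries within groups, none was a duplicate (lowest chi-square per degree of freedom 8.44). The 7 genes and the gene lists were chosen with earlier results of these data known. Named are both genes with the lowest p in each comparison, list genes called or among the lowest p, and the 3 genes most like each of the 7, passing over Gm, Rik and LOC names. Some genes that this rule would name are not reported here.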

Additional observations from a re-analysis of the deposited data

Results flagged for a closer look

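Each of the 7 genes was checked for a library far from the rest of its group in the 5 groups of 4 to 10 libraries, which makes 35 checks, and chance flags about 1 in 20. In 3 cases the gap was larger than Dixon's limit. Gabra2 had 13.7 CPM in saline replicate 2 at 1 month, the lowest of 5, with the next library at 30.8 CPM. Gabrb1 had 58.1 CPM in replicate 2 of the second nonescalating run at 24 h, the highest of 9, with the next at 40.5 CPM. Gabrb2 had 298.6 CPM in escalating replicate 3 at 1 month, the highest of 4, with the next at 250.3 CPM. Saline replicate 5 at 24 h, which stands apart in depth and markers, did not pass this limit for any of the 7 genes.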

How the results depend on the processing

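The count of subunit genes called stayed at 0 in 241 of 242 alternative fits, replicate block included. The exception was purified against input RNA with the saline libraries of 1 month alone, with 1 call among the 2951 over all genes. Over all 1785 fitted values of the 7 genes in all settings, 1 passed. Fold changes of the genes with the lowest p changed sign in 4 of 484 cases, each with 1 saline library of 24 h left out. Gabrg1 in all cocaine against saline at 24 h was at 0.0613 without replicate 3 (range over left-out libraries -0.65 to 0.0613), Gabra2 at 0.0008 without replicate 6 (-0.53 to 0.0008), Gabrb1 in escalating against saline at 0.0221 without replicate 3 (-0.68 to 0.0221), and Gabra5 in the difference of cocaine effects at 0.0412 without replicate 5 (-0.52 to 0.0412). None of these passed in either form, and the cause was not tested.

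With coding length, the shares were 9.44% for Gabra2, 12.9% for Gabra5, 3.01% for Gabrb1 and 37.4% for Gabrd, and with no length 8.50%, 11.96%, 2.86% and 36.4%.

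Same-numbered libraries did not deviate together (mean correlation 0.02 over 20 pairs at 24 h and -0.10 over 22 at 1 month, over 0.1 in 6 and 2), and 6 of 19 and 2 of 20 libraries correlated best with their own number. With the replicate block, 0 of the 7 genes were called in any comparison. Over all genes, calls for purified against input RNA were 156 with the block, against 712 without it. They were 2302 without saline replicate 5, and 43 or 49 without an input. With the 24 h saline libraries alone they were 12, and with those of 1 month alone 2951. All cocaine against saline at 24 h called 0 to 508 genes against 6, and saline at 1 month against 24 h 7 to 628 against 128. Escalating and nonescalating against saline at 24 h reached 47 and 276 against 0, and the difference of cocaine effects 60 against 2. Depth limits Gabrg1 most, with as few as 6 counts.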

Other observations

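Other GABA-A subunit genes were measured in the same libraries. Gabra3 was between 2.71 and 52.8 CPM in the purified libraries and at 19.9 and 30.6 CPM in the inputs. Gabra6, a gene of cerebellar granule cells, had at most 1 count in any library.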
